A study of Mus musculus with 2 samples.

Results

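Chac1, Trib3, Ddit3, Atf3, Atf4, Atf5, Sesn2, Cebpb, Asns and Xbp1 are genes of the cellular stress response, and their transcripts were followed here in the developing mouse retina. They are 10 of the 28692 genes in the deposited count matrices. They were chosen by their symbols, from genes whose levels had been seen to be high in a group of stressed cells in an earlier pass over these same libraries, so their co-occurrence in such cells is a description and is supported by no test. Retinas of E14.5 embryos heterozygous for the Tg(Lhx4::EGFP)KN199Gsat/Mmucd transgene, in which regulatory sequence of *Lhx4* on a bacterial artificial chromosome drives EGFP, were pooled from 2 litters, dissociated and sorted. The GFP+ and the GFP− cells were each made into 1 droplet library. Both gates therefore carry the transgene, no other treatment is named, and a cell's gate was set by whether it was bright enough to be sorted as GFP+. The 2 libraries also differ in depth and in cell types, as given below.

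The protein products of these genes form a chain. Kinases that sense a shortage of amino acids, unfolded protein in the endoplasmic reticulum, viral RNA or lack of heme phosphorylate the initiation factor eIF2α, which slows protein synthesis in general while the mRNA of the transcription factor ATF4 is translated better. ATF4 then activates genes for amino acid synthesis and uptake and for further transcription factors, among them CHOP, the product of *Ddit3*, and with prolonged stress CHOP and its partners can favour cell death. XBP1 belongs to another arm, in which IRE1 splices *Xbp1* mRNA and the spliced form raises chaperones of the endoplasmic reticulum. Since *Atf4* and *Atf5* are controlled largely by translation and *Xbp1* by splicing, mRNA counts show only part of their activity, and the counts do not separate the spliced from the unspliced form.

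ATF4 binds, with C/EBP partners, to composite elements whose core reads TGATGNAA, and a search of the promoters shows which of the genes hold that core close to their start. The RefSeq promoter windows of GRCm38.p6, from 250 bases before to 50 after each start, were searched on both strands (the reverse complement reads TTNCATCA). All 10 genes had a window, and 4 of them held the core, against 1219 of the 27025 gene symbols in the table (4.51%), or 3.97% of its 32851 windows. The windows around the 4 matches are shown on the strand of the gene with the match in capitals, to show how alike the matches are in the 2 genes that define the classes of cells and in the others.
Chac1 (chr2:119351003-119351102, plus strand, match from base -193): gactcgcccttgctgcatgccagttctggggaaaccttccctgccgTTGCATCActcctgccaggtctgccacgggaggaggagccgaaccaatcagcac
Atf3 (chr1:191183390-191183489, minus strand, match from base -110): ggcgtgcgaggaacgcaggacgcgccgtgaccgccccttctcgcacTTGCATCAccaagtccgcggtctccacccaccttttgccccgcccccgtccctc
Asns (chr6:7693214-7693243, minus strand, match from base -23): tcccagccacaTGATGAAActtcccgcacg
Trib3 (chr2:152344028-152344057, minus strand, match from base 15): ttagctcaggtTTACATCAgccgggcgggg
Chac1 and Atf3 share the same 8 bases, TTGCATCA, in the same orientation. A match is a description of the letters and not a binding site, and the windows of the 6 other genes hold no such letters, which says nothing of ATF4 at more distant sites.

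The GFP+ library held 3728 cell barcodes with 16010591 unique molecular identifiers (UMIs, 1 for each captured transcript) and the GFP− library 4445 with 46778924. Barcodes outside 250 to 3500 genes, or with 0.25 or more of their UMIs mitochondrial, were set aside, which left 3689 GFP+ cells (median 3894 UMIs) and 3391 GFP− cells (median 8853 UMIs). Levels are sums of UMIs in a class of cells per 1000000 UMIs of that class (CPM). As there was 1 library per gate, cells are not replicates, no test was made, and the 95% exact intervals (Poisson for a CPM, Clopper-Pearson for a share, conditional for a ratio of CPM) cover counting error only. The libraries shared 20 barcodes. The reporter is active in early cone photoreceptors, and 10 cone markers summed to 7042 CPM in the GFP+ and 166 CPM in the GFP− cells without a Chac1 or Trib3 UMI.

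Over all kept cells, each of the 10 genes had a higher CPM in the GFP+ than in the GFP− library. *Ddit3*, which encodes the pro-apoptotic transcription factor CHOP, stood at 103 CPM (98.0 to 108) in the GFP+ library and 22.6 CPM (21.0 to 24.4) in the GFP− library, a ratio of 4.55 (4.16 to 4.98). *Sesn2*, whose product senses leucine and restrains mTORC1, was at 36.2 and 6.04 CPM, and had the highest ratio of the set, 5.99 (5.06 to 7.12). *Atf3*, a stress-induced transcription factor, was scarce in both, at 9.29 and 1.79 CPM, with a ratio of 5.18 (3.76 to 7.22). *Atf4* itself was at 406 CPM (396 to 416) and 138 CPM (134 to 143), a ratio of 2.94 (2.82 to 3.05). The genes with the lowest ratios were *Xbp1* at 1.82 (1.66 to 1.99), *Trib3*, which encodes a pseudokinase that binds ATF4, at 1.82 (1.38 to 2.40), and *Chac1*, which encodes a glutathione-degrading enzyme, at 1.92 (1.53 to 2.41). Their intervals overlapped one another.

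Of the 6 genes that reached 20 CPM in either gate, *Chac1* and *Trib3* left aside, 5 were at 2-fold or more in GFP+ cells, a threshold that 20.4% of the 7013 genes compared also passed. None was at 2-fold or more in GFP− cells, where 9.33% of genes were. *Sesn2*, at 6.04 CPM in GFP− cells, passed the limit of 20 CPM only through the GFP+ gate. The median log2 ratio of the genes compared was itself 0.33 in favour of GFP+. Counted as UMIs per cell, the genes did not all point one way. A GFP+ cell without Chac1 or Trib3 UMIs held on average 1.59 UMIs of *Atf4* and 0.361 of *Ddit3*, against 1.15 and 0.176 in such a GFP− cell. For *Atf5*, *Asns*, *Cebpb* and *Xbp1*, the means per cell were 0.212, 0.198, 0.0315 and 0.238 in GFP+ and 0.263, 0.226, 0.0340 and 0.294 in GFP− cells, so that their higher CPM in GFP+ came with fewer UMIs per cell.

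A UMI of *Chac1* or *Trib3* was found in 162 of the 3689 GFP+ cells, 4.39% (3.75 to 5.10), and in 153 of the 3391 GFP− cells, 4.51% (3.84 to 5.27). The shares were close although the GFP− cells were read more deeply. When every cell was thinned to 3200 UMIs, 118 of 3110 GFP+ cells, 3.79% (3.15 to 4.53), and 76 of 3363 GFP− cells, 2.26% (1.78 to 2.82), had such a UMI, and the intervals no longer overlapped. Thinning left out 579 GFP+ and 28 GFP− cells that were too shallow. Of the 118 thinned GFP+ cells with such a UMI, 55 were among the 103 of cluster 4, described below. The thinned share was 2.82% (2.00 to 3.85) in the cone-like cluster of 1800 GFP+ cells. It was 1.57% (1.02 to 2.31) in the *Fabp7*-led cluster of 1695 GFP+ cells. These intervals overlapped that of the GFP− gate, so the higher thinned GFP+ share rested on cluster 4.

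The 2 marks met in the same cells. *Chac1* was found in 99 GFP+ cells and *Trib3* in 88, of which 25 held both, 25.3% of the *Chac1* cells and 28.4% of the *Trib3* cells. In the GFP− gate, 106 cells held *Chac1* and 86 held *Trib3*, and the 39 with both were 36.8% and 45.3% of them. Most positive cells rested on a single UMI, 99 of 162 in GFP+ and 92 of 153 in GFP−. The highest count in a cell was 5 UMIs of both genes together in GFP+ and 6 in GFP−. Within these classes *Chac1* stood at 212 CPM among GFP+ cells, at 109 CPM among GFP− cells, and *Trib3* at 143 and 77.4 CPM, levels that the definition of the classes fixes in part.

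In depth and quality the cells with and without such a UMI were near one another. The median was 4112.5 against 3882 UMIs in GFP+ and 9321 against 8807.5 in GFP−. The mitochondrial percentage was 2.00 against 2.51 in GFP+ and 2.24 against 2.40 in GFP−. Scrublet, a doublet caller, marked 3 of all GFP+ and 60 of all GFP− barcodes, under 0.5% in GFP+, where it cannot be taken to have worked. None of the 162 GFP+ cells and 1 of the 153 GFP− cells was among those marked.

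**Figure D1:**
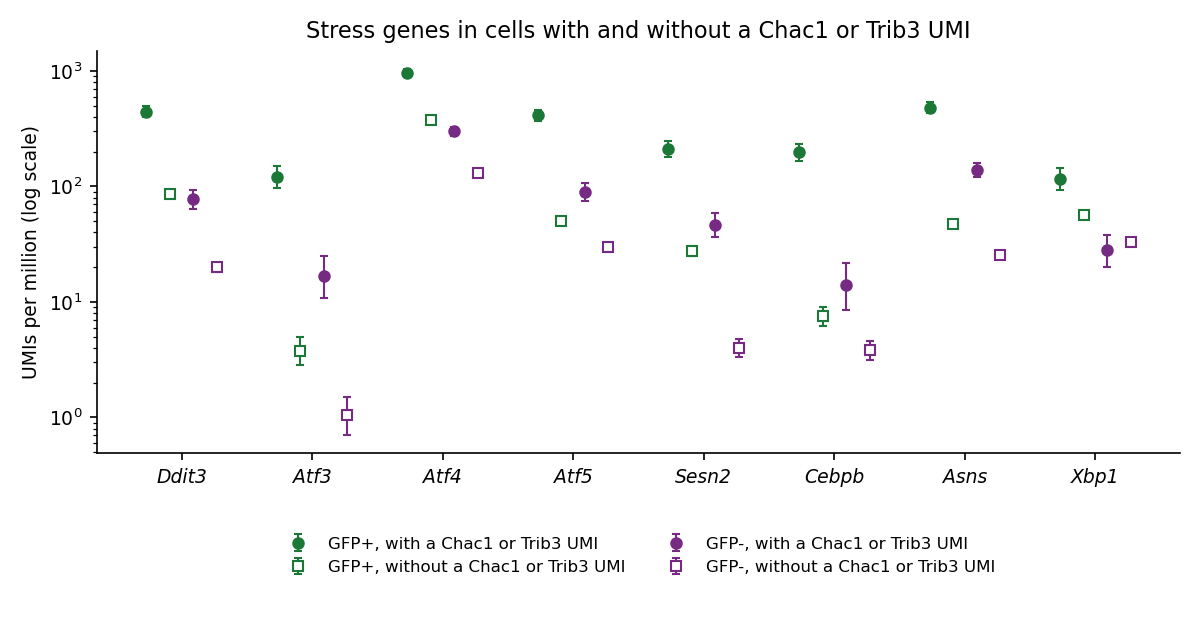
Level of 8 stress genes in CPM (log axis) in the cells of each gate with (filled) and without (open) a Chac1 or Trib3 UMI, with 95% exact Poisson intervals from 1 library per gate. In GFP+ cells every gene lies higher in the cells with such a UMI, and in GFP− cells every gene does except Xbp1, at 27.9 against 33.1 CPM.

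Summed over each whole gate, the transcription factors of the pathway were higher in the cells with Chac1 or Trib3 UMIs in both gates. Single cell groups are given below. *Ddit3* was at 443 CPM (396 to 495) in GFP+ cells with such a UMI and 86.3 CPM (81.6 to 91.1) in those without, a ratio of 5.14 (4.53 to 5.81). In GFP− cells it was at 78.1 CPM (64.3 to 94.0) and 19.9 CPM (18.3 to 21.6), a ratio of 3.93 (3.18 to 4.82). The GFP+ cells without such a UMI thus held *Ddit3* at about the level of the GFP− cells with one, and their intervals overlapped.

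*Atf3* had the highest ratio in both gates, with an interval that overlapped that of *Cebpb* in GFP+ and of *Sesn2* in GFP−. It was at 121 CPM in GFP+ cells with and 3.79 CPM in those without, a ratio of 32.0 (22.6 to 45.5), and at 16.7 and 1.05 CPM in GFP−, a ratio of 16.0 (8.95 to 28.3). The GFP− values rested on 24 and 30 UMIs, and without the upper limit on genes the GFP− log2 ratio of *Atf3* was 3.20, below the 3.50 of *Sesn2*. An *Atf3* UMI was found in 33.3% (26.1 to 41.2) of the GFP+ cells with and 1.45% (1.08 to 1.90) of those without.

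*Atf4*, which is widely transcribed, differed least among the genes that were higher in both gates. It was at 964 and 378 CPM in GFP+, a ratio of 2.55 (2.35 to 2.76), and at 299 and 130 CPM in GFP−, a ratio of 2.30 (2.07 to 2.54). Its ratios in the 2 gates overlapped. *Atf5*, a related factor that is also controlled by translation, did not behave so evenly. Its ratio was 8.16 (7.11 to 9.34) in GFP+, from 413 and 50.6 CPM, and 3.03 (2.49 to 3.64) in GFP−, from 90.0 and 29.7 CPM. *Cebpb*, which encodes a C/EBP factor, was at 198 and 7.51 CPM in GFP+, a ratio of 26.4 (20.5 to 34.1), and at 13.9 and 3.83 CPM in GFP−, a ratio of 3.64 (2.14 to 5.89). For *Atf5* and *Cebpb* the intervals of the 2 gates lay apart. With 1 library per gate this difference itself was not tested. In GFP+ cells with such a UMI, 222 of the 300 *Atf5* UMIs and 121 of the 144 *Cebpb* UMIs lay in cluster 4, described below. In the larger GFP+ clusters 1 and 3, *Cebpb* was at 59.5 and 57.4 CPM in cells with, against 6.77 and 4.29 CPM in those without. *Atf5* was at 201 and 195 CPM there, against 56.4 and 31.3 CPM.

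The effector genes followed the same direction. *Asns*, asparagine synthetase, was at 481 CPM (432 to 534) in GFP+ cells with and 47.4 CPM (43.9 to 51.0) in those without, a ratio of 10.1 (8.90 to 11.6). In GFP− cells it was at 139 CPM (121 to 160) and 25.5 CPM (23.7 to 27.4), a ratio of 5.47 (4.65 to 6.40). *Sesn2* went the other way between gates, with a ratio of 7.63 (6.30 to 9.21) in GFP+, from 211 and 27.6 CPM, and 11.7 (8.49 to 15.9) in GFP−, from 46.7 and 4.01 CPM. These intervals overlapped.

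*Xbp1*, of the other arm, was the exception. It was at 117 CPM (93.5 to 145) in GFP+ cells with and 56.9 CPM (53.1 to 60.9) in those without, a ratio of 2.06 (1.63 to 2.57). In GFP− cells it was at 27.9 CPM (19.9 to 38.0) and 33.1 CPM (31.1 to 35.3), and the interval of its ratio, 0.841 (0.597 to 1.15), included 1.

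Of the 8 genes, all 8 reached 20 CPM in either class of GFP+ cells and were at a ratio of 2 or more there, where 3.92% of the 6985 genes compared were. None was at a ratio of 0.5 or less, where 0.759% of genes were. *Atf3* and *Cebpb*, at 3.79 and 7.51 CPM in GFP+ cells without, passed the limit only through the cells with. In GFP− cells so did *Sesn2*, at 4.01 CPM in those without. Genes so scarce could be counted only at a ratio of 2 or more. *Ddit3*, at 19.9 CPM in GFP− cells without, was just under the limit there and also passed only through the cells with. In GFP− cells 6 of the 8 reached 20 CPM and 5 of these were at 2 or more, against 1.24% of 5987 genes, with none at 0.5 or less, against 2.64%. *Atf3* and *Cebpb* were the genes under 20 CPM. These genes were chosen with this contrast in view, so the counts are given beside the background and nothing is read from them. The median log2 ratio of the 8 genes was 2.98 in GFP+ and 1.92 in GFP− cells. That of the 6985 and 5987 genes compared was 0.06 and 0.01. The GFP− value of 1.92 includes *Atf3* and *Cebpb*, and over the 6 genes that reached 20 CPM it was 1.79. With the unmarked cells weighted to the clusters of the marked cells, the median was 0.75 in GFP+ and 1.67 in GFP−. In GFP+ this placed 46.9% of the cell weight on the 41 unmarked cells of cluster 4, described below. Stress genes were high in those cells too, with *Asns* at 602 CPM. The median without cluster 4 is also given below.

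The genes were also found together cell by cell. A GFP+ cell with a Chac1 or Trib3 UMI held a UMI of a median of 5 of the 8 other genes, and 94 of the 162 (58.0%) held 5 or more. Of the 3527 GFP+ cells without, 77 (2.18%) held 5 or more and the median was 1. In GFP− cells the median was 3 with and 1 without, with 5 or more genes in 31 of 153 (20.3%) and 21 of 3238 (0.649%). At 3200 UMIs per cell 5 or more were found in 59 of 118 GFP+ cells with and in 1.64% of those without. In GFP− they were found in 1 of 76 cells with (1.32%) and 4 of 3287 without (0.122%). The GFP− share was thus far lower once its cells were thinned, and rested on 1 cell.

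**Figure D2:**
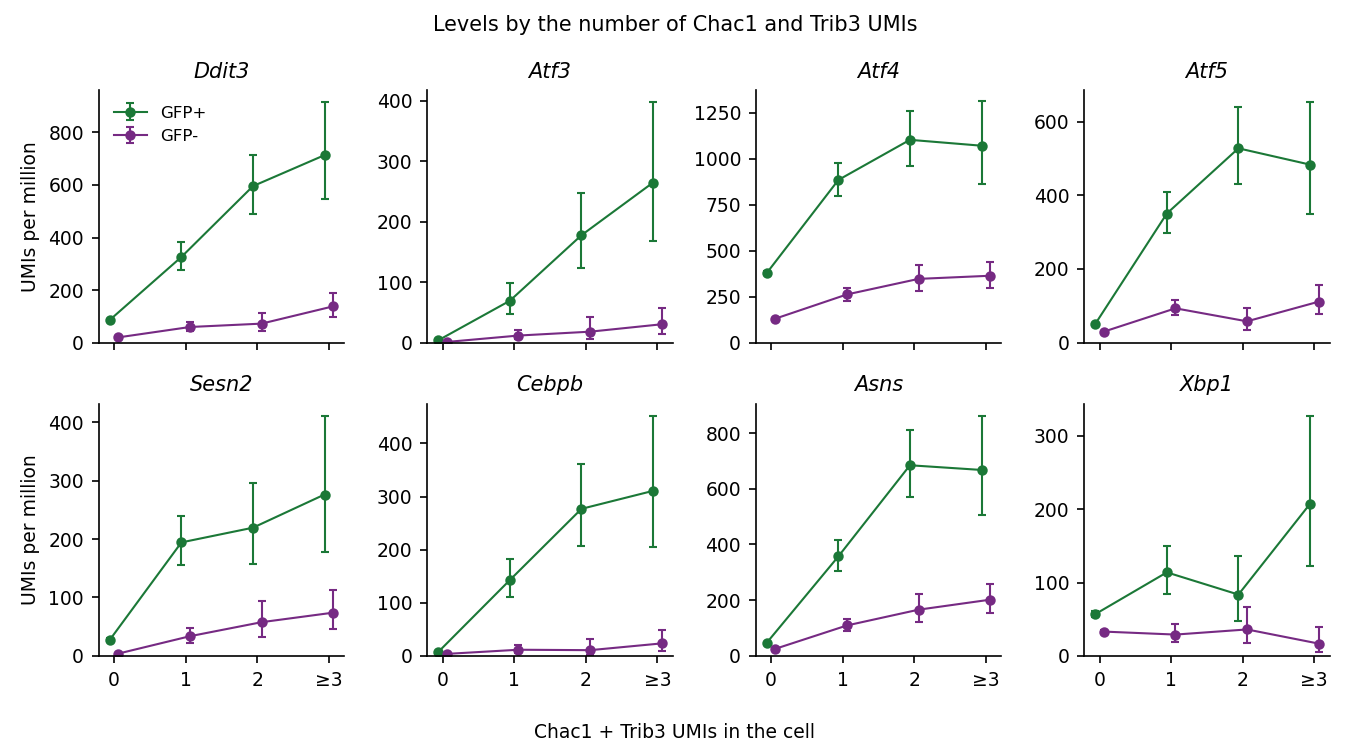
Level of 8 stress genes in CPM (linear axis from 0) by the number of Chac1 and Trib3 UMIs summed in the cell, with 95% exact Poisson intervals, for the GFP+ (green) and GFP− (purple) library. Ddit3 and Atf3 lie higher at 3 or more UMIs than at 1 in GFP+ cells, while Atf4 and Asns are level from 2 UMIs on.

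Most levels were higher in cells with more Chac1 and Trib3 UMIs, though neighbouring steps often overlapped. In GFP+ cells *Ddit3* was at 86.3 CPM with none, 326 CPM (275 to 383) with 1, 596 CPM (491 to 715) with 2 and 714 CPM (547 to 915) with 3 or more. *Atf3* was at 3.79, 69.2, 178 and 265 CPM over the same steps. *Atf4*, at 378, 884, 1102 and 1070 CPM, and *Asns*, at 47.4, 357, 684 and 668 CPM, had no higher level at the last step than at the one before, and the intervals of the last 2 steps overlapped for *Ddit3* and *Atf3* too. In GFP− cells *Asns* was at 25.5, 109, 166 and 202 CPM, where each step overlapped the next from 1 UMI on, and *Sesn2* at 4.01, 33.7, 57.7 and 74.0 CPM. The classes of 2 and of 3 or more UMIs held 42 and 21 GFP+ cells and 30 and 31 GFP− cells. In GFP−, *Atf5* (29.7, 93.1, 57.7 and 111 CPM) and *Cebpb* (3.83, 11.6, 10.8 and 23.5 CPM) did not keep this order. *Xbp1* had no such order in either gate, at 56.9, 114, 83.6 and 207 CPM in GFP+ and 33.1, 29.1, 36.1 and 16.8 CPM in GFP−.

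Cells marked by *Chac1* alone and by *Trib3* alone were alike in some genes and not in others. In GFP+, *Atf4* was at 929 CPM in the 74 cells with *Chac1* alone and 931 CPM in the 63 with *Trib3* alone. *Ddit3* was higher in the *Chac1* cells, at 487 CPM (415 to 568) against 338 CPM (274 to 411). In the 25 cells with both, *Cebpb* reached 419 CPM (302 to 566), against 156 CPM (117 to 205) and 170 CPM (127 to 225) in the cells with *Chac1* or *Trib3* alone. In GFP−, *Atf5* was higher in the 47 cells with *Trib3* alone, at 139 CPM (106 to 178), than in the 67 with *Chac1* alone, at 49.1 CPM (33.4 to 69.7).

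Both libraries were clustered together without any of these genes or the pathway genes below among the variable genes, and the clusters were named from marker lists. In the GFP+ gate, 161 of the 162 cells with a Chac1 or Trib3 UMI lay in the clusters in which the cone markers were highest (clusters 1, 3 and 4), which held 3612 of all 3689 GFP+ cells. In the GFP− gate, 137 of the 153 (89.5%) lay in clusters named as multipotent retinal progenitor cells (RPC), the dividing cells that give rise to all retinal types, which held 1948 of all 3391 GFP− cells. The share of cells with such a UMI was 7.03% (5.94 to 8.26) in these and 1.15% (0.659 to 1.86) in the GFP− cells outside them and the cone list clusters.

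**Figure D3:**
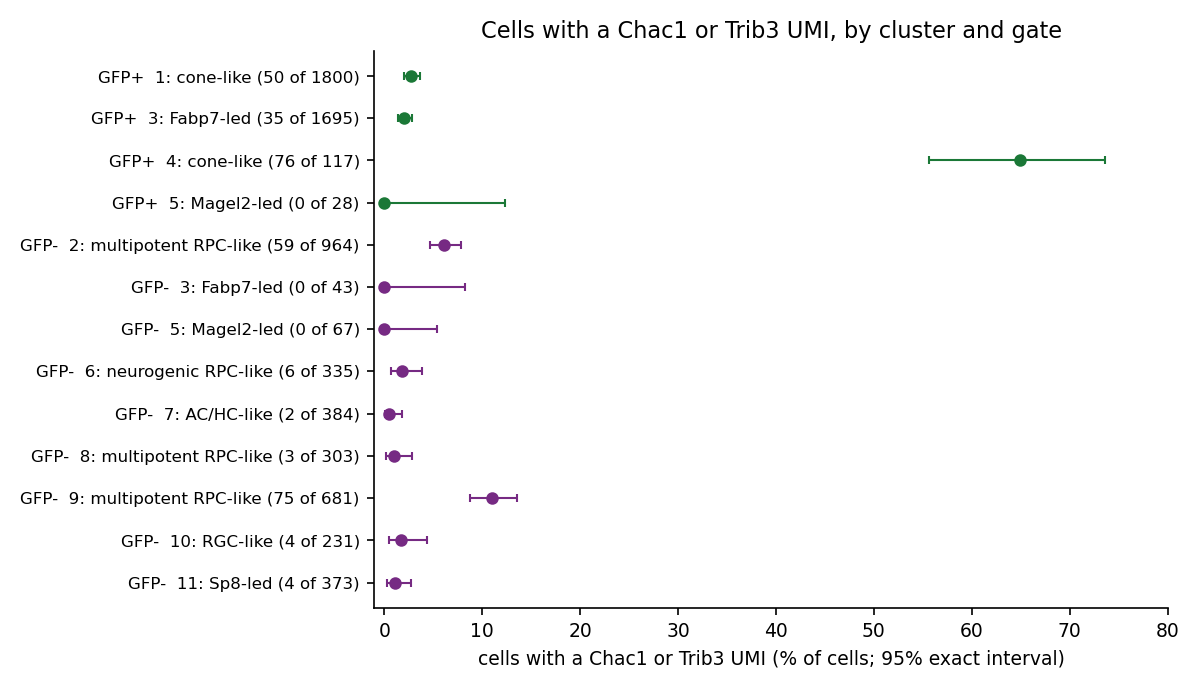
Cells with a Chac1 or Trib3 UMI as a percentage of the cells of each cluster and gate, with 95% exact binomial intervals, for clusters of 25 cells or more (GFP+ green, GFP− purple). Cluster 4 of the GFP+ gate stands apart at 65.0%, and among GFP− clusters the progenitor-like clusters 9 and 2 are highest, at 11% and 6.12%.

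Cluster 4 was a small cluster of 117 GFP+ cells and 1 GFP− cell. It was cone-like by the marker rule, but its leading genes were stress genes, *Cebpb*, *Atf3* and *Chac1* among them. A Chac1 or Trib3 UMI was found in 76 of its 117 GFP+ cells, 65.0% (55.6 to 73.5). In cluster 1, also cone-like, the share was 50 of 1800, 2.78% (2.07 to 3.65), and in cluster 3, led by *Fabp7*, 35 of 1695, 2.06% (1.44 to 2.86). Cluster 4 therefore held 46.9% of the GFP+ cells with such a UMI. It depended on the clustering: with depth and cell cycle regressed out, no such cluster formed, and 87.0% of these cells lay in a cone-like cluster of 2292 GFP+ cells in which the share was 6.15% (5.20 to 7.21). At Leiden resolution 1 a cluster with *Cebpb*, *Atf3* and *Chac1* among its leading genes did form. Such a UMI was found in 91 of its 168 GFP+ cells, 54.2% (46.3 to 61.9). In cluster 4 the *Asns* level was 650 CPM and the *Ddit3* level 599 CPM, which is a description of cells that were grouped by their own expression, although the 10 genes were not among the variable genes. Without its GFP+ cells, the ratio of GFP+ over GFP− for *Chac1* changed direction, from a log2 ratio of 0.94 to -0.33 (-0.78 to 0.11), and for *Trib3* from 0.86 to -0.0087 (-0.50 to 0.47), both with intervals that then included 0. The median log2 ratio over the 10 genes was 0.72 without these cells, against 1.34 with them.

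Among the GFP− cells, cluster 9, a progenitor-like cluster led by histone and mitotic genes, held 75 of 681 cells with such a UMI, 11% (8.76 to 13.6). Cluster 2, led by genes of early S phase such as *Ung* and *Cdc6*, held 59 of 964, 6.12% (4.69 to 7.82). Cluster 8, led by mitotic genes, held only 3 of 303, 0.990% (0.205 to 2.87), so the intervals of the progenitor-like clusters lay apart (medians of 10313, 8700.5 and 8857 UMIs). At 3200 UMIs per cell the shares were 6.76% (4.99 to 8.92) in cluster 9, 2.30% (1.45 to 3.46) in cluster 2 and 0.334% (0.00847 to 1.85) in cluster 8, and the last 2 overlapped. The share was 1.79% in neurogenic RPC-like cells, 1.73% in retinal ganglion cell (RGC)-like cells and 0.521% (0.0631 to 1.87) in amacrine and horizontal cell (AC/HC)-like cells, whose median was 6824 UMIs. Free RNA was not measured, and no cell type was taken to lack these genes. The shares of cluster 8 and of the neurogenic RPC-like, RGC-like and AC/HC-like cells rest on 3, 6, 4 and 2 cells. These shares therefore cannot be told apart from free RNA. In the 53 GFP− cells of the cone list clusters no such UMI was found, which allows a share of up to 6.72%.

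The ratios were also taken within the cell groups that hold most of the positive cells. Among GFP+ cells of the cone list clusters, *Asns* was at 489 CPM with and 48.0 CPM without a Chac1 or Trib3 UMI, a ratio of 10.2 (8.93 to 11.6). Among GFP− multipotent RPC-like cells it was at 155 and 32.9 CPM, a ratio of 4.70 (3.97 to 5.53), and *Sesn2* at 52.1 and 5.51 CPM, a ratio of 9.46 (6.80 to 13.1). *Xbp1* had a ratio of 2.06 in the former and of 0.933 (0.642 to 1.32) in the latter. The 16 marked GFP− cells outside these groups showed no clear rise, on few UMIs. *Ddit3* was at 20.4 CPM (4.21 to 59.7) there, against 22.3 CPM in the 1374 unmarked cells. *Atf5* was at 6.80 against 25.5 CPM and *Asns* at 6.80 against 15.02 CPM, each on 1 UMI. *Xbp1* was at 34.0 against 38.5 CPM, and *Atf3* and *Sesn2* had no UMI. *Atf4*, at 170 against 149 CPM, and *Cebpb*, on 1 UMI, were higher, with overlapping intervals. By cell cycle scores, 62.8% of the GFP− progenitor-like cells with and 68.6% of those without were placed in S phase, and 35.8% and 28.9% in G2/M, with overlapping intervals. Of the 161 GFP+ cells with, 158 were placed in G1, as were 97.9% of those without. Without the cells of cluster 4, the median log2 ratio of the 8 genes was 2.45 in GFP+, over 86 cells with. Within cluster 4 the genes differed in this respect. *Asns* was at 602 CPM (490 to 732) in the 41 cells without and 675 CPM (588 to 771) in the 76 with, and the intervals of *Atf5*, *Sesn2*, *Xbp1* and *Ddit3* also overlapped. *Atf4* was at 632 CPM (517 to 765) and 1235 CPM (1117 to 1363), *Cebpb* at 211 CPM (147 to 293) and 376 CPM (312 to 450), and *Atf3* at 66.2 CPM (33.0 to 118) and 165 CPM (124 to 216), with intervals that lay apart.

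Cells with neither mark still differed between the gates. In these 3527 GFP+ and 3238 GFP− cells, *Sesn2* was at 27.6 CPM (25 to 30.4) and 4.01 CPM (3.31 to 4.81), a ratio of 6.89 (5.59 to 8.55). *Ddit3* was at 86.3 and 19.9 CPM, a ratio of 4.34 (3.93 to 4.80), *Atf3* at 3.79 and 1.05 CPM, a ratio of 3.62 (2.29 to 5.85), and *Atf4* at 378 and 130 CPM, a ratio of 2.91 (2.79 to 3.03). The remaining ratios were lower, at 1.96 (1.49 to 2.57) for *Cebpb*, 1.86 (1.67 to 2.06) for *Asns*, 1.72 (1.56 to 1.89) for *Xbp1* and 1.70 (1.54 to 1.88) for *Atf5*. For these genes the order of the gates did not hold across clusters, as given below. The 41 unmarked GFP+ cells of cluster 4 held 35 of the 111 GFP+ UMIs of *Cebpb* counted here. For *Atf5* they held 130 of 748, for *Asns* 100 of 700 and for *Xbp1* 23 of 841. Of the 6 genes at 20 CPM or more in either gate, 3 (*Ddit3*, *Atf4* and *Sesn2*) were at 2-fold or more, beside 20.1% of 7002 genes, and none at 2-fold or more in the other direction, beside 9.40% of genes. *Sesn2* and, just under the limit at 19.9 CPM in GFP− cells, *Ddit3* passed the limit of 20 CPM only through the GFP+ gate. The median log2 ratio of these 7002 genes was 0.32.

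Leaving out every cell with a UMI of *Chac1*, *Trib3*, *Atf3*, *Cebpb* or *Sesn2* changed the genes unevenly. In the 3088 GFP+ and 3028 GFP− cells that remained, the ratio was 4.08 (3.67 to 4.55) for *Ddit3* and 2.82 (2.69 to 2.94) for *Atf4*, close to the values above. For *Asns* it was 1.44 (1.27 to 1.63) and for *Atf5* 1.34 (1.20 to 1.51). In CPM, then, the part of the gate difference that remained in cells without these 5 transcripts was greatest for *Ddit3* and *Atf4*.

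**Figure D4:**
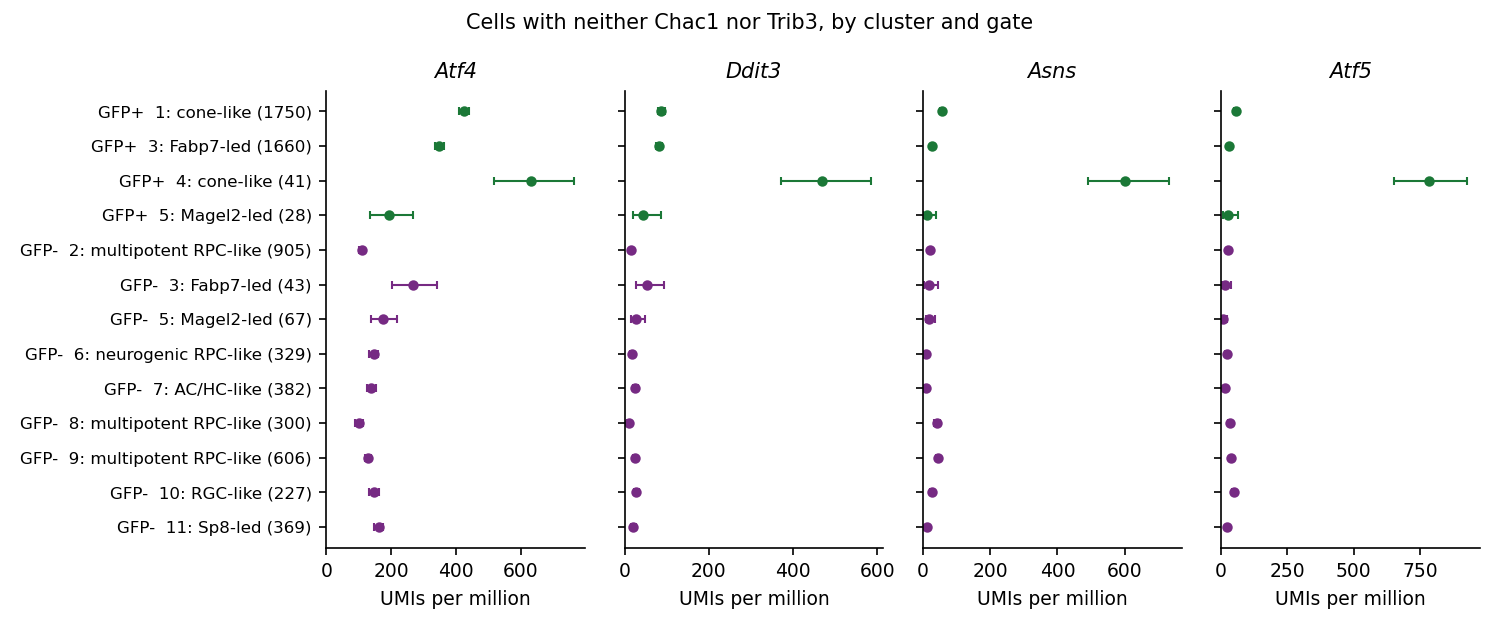
Level of Atf4, Ddit3, Asns and Atf5 in CPM (linear axes from 0) in cells with neither a Chac1 nor a Trib3 UMI, by cluster and gate, with 95% exact Poisson intervals and the number of cells in parentheses. Cluster 4 is highest for each gene, and for Atf4 the other cone list clusters lie above the GFP− progenitor-like and neuronal clusters.

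By cluster, the baseline of *Atf4* in cells without either mark was highest in the cone list clusters. It was at 632 CPM (517 to 765) in the 41 such GFP+ cells of cluster 4, 425 CPM (409 to 441) in cluster 1 and 348 CPM (335 to 362) in cluster 3, whose intervals lay apart. GFP− clusters of 25 cells or more ranged from 101 CPM (89.5 to 114) in the mitotic cluster 8 to 161 CPM (147 to 176) in the *Sp8*-led cluster 11, with the small *Magel2*-led cluster 5 at 175 CPM (139 to 217) and the 43 cells of cluster 3 at 266 CPM (203 to 343). Neighbours in this order among the GFP− clusters had overlapping intervals, except the progenitor-like clusters 2, at 109 CPM (101 to 116), and 9, at 128 CPM (119 to 137). *Ddit3* was at 87.2 and 81.8 CPM in clusters 1 and 3 of the GFP+ gate and at 10.2 to 27.7 CPM in the GFP− clusters of 25 cells or more other than cluster 3, where it was at 53.2 CPM (27.5 to 93.0). The other genes did not keep this order. In GFP+ clusters 1 and 3, *Asns* was at 57.6 and 28.1 CPM (24.4 to 32.1 in cluster 3), against 43.9 CPM (38.8 to 49.5) in GFP− cluster 9. *Atf5* was at 56.4 and 31.3 CPM, against 39.4 CPM in GFP− cluster 9. *Cebpb* was at 6.77 and 4.29 CPM, against 7.32 CPM there, with overlapping intervals. *Xbp1* was at 67.9 and 47.8 CPM, against 67.4 CPM in GFP− RGC-like cells.

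The same cell group could be compared across the gates only in few cells. The 53 GFP− cells of the cone list clusters, 43 of them in cluster 3, held *Atf4* at 285 CPM and *Ddit3* at 61.5 CPM, against 386 and 88.8 CPM in 3451 GFP+ cells without a mark, most of them in clusters 1 and 3. The ratios were 1.36 (1.08 to 1.73) and 1.44 (0.885 to 2.53). The 29 GFP+ cells that fell in multipotent RPC-like clusters held *Atf4* at 157 CPM (110 to 217), nearer to GFP− progenitor-like cells (114 CPM without a mark) than to GFP+ cone-like cells, and no UMI of *Ddit3*, which allows a level of up to 16.0 CPM. Cell type and gate thus cannot be told apart over most of the cells.

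The 11 lists of genes below were compared in the same way to see how far the wider pathway went along. They were chosen with results of these data known, and their counts stand beside 3.92% of all genes at 2-fold or more higher in GFP+ and 1.24% in GFP−. A gene was counted if it reached 20 CPM in either class. Genes scarce in the GFP+ cells without, such as *Slc7a11* and *Gdf15*, could therefore be counted only at 2-fold or more higher. In GFP+ cells, all 10 genes of amino acid synthesis were at 2-fold or more in the cells with a Chac1 or Trib3 UMI, with a median log2 ratio of 2.77, and in GFP− cells 6 of 10 were, with a median of 1.14. *Cth*, which makes cysteine, was at 190 and 10.4 CPM in GFP+, a ratio of 18.4, and had 3.55 (2.69 to 4.61) in GFP−. *Mthfd2*, of mitochondrial folate metabolism, had ratios of 11.3 (10.0 to 12.8) and 5.63 (4.98 to 6.37), and *Shmt2*, of serine and glycine metabolism, of 7.63 (6.40 to 9.05) and 1.99 (1.73 to 2.29).

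All 9 amino acid transporters were at 2-fold or more in GFP+ cells (median log2 ratio 2.60), and 4 of the 5 that reached 20 CPM were in GFP− cells (median 2.17). *Slc7a5*, the light chain of the large neutral amino acid transporter, had ratios of 11.9 (10.2 to 13.9) and 5.30 (4.44 to 6.30). *Slc7a3*, a carrier of cationic amino acids, had 19.3 (15.2 to 24.4) and 8.20 (4.93 to 13.3). The gates parted at *Slc7a11*, the cystine carrier, which was at 55.1 and 2.84 CPM in GFP+, a ratio of 19.4 (12.2 to 30.6), and at 4.88 and 3.45 CPM in GFP−, where 7 UMIs gave 1.41 (0.554 to 3.02). Among the aminoacyl-tRNA synthetases, which charge tRNAs, 11 of 14 were at 2-fold or more in GFP+ and 6 of 14 in GFP−. *Cars* had the highest ratios, 5.26 (4.42 to 6.23) and 3.30 (2.72 to 3.97), *Gars* had 4.83 and 1.68 and *Tars* 4.02 and 1.96. *Vars* and *Wars* were the exceptions in both gates, with intervals that included 1.

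Of the kinases and phosphatase subunits that act on eIF2α, 4 of 6 reached 20 CPM in GFP+ cells and 2 were at 2-fold or more, and the 1 that reached it in GFP− was not. *Eif2ak3*, which encodes PERK, the kinase of the endoplasmic reticulum, was at 118 and 25.8 CPM in GFP+, a ratio of 4.59 (3.59 to 5.82), and at 2.09 and 3.83 CPM in GFP−, a ratio of 0.546 (0.111 to 1.64) from 3 UMIs. *Ppp1r15a*, the stress-induced phosphatase subunit GADD34, had ratios of 3.09 (2.35 to 4.01) and 1.51 (0.971 to 2.25), and *Ppp1r15b*, its constitutive counterpart, 1.70 (1.04 to 2.62) and 1.71 (1.16 to 2.44). Among other genes known as targets of ATF4 or CHOP, 7 of 10 were at 2-fold or more in GFP+ and 4 of 9 in GFP−. *Nupr1*, a chromatin-associated stress protein, had ratios of 17.9 (9.63 to 33.1) and 2.63 (1.91 to 3.56), *Vldlr*, a lipoprotein receptor, 11.2 (8.18 to 15.1) and 3.37 (2.60 to 4.32), and the secreted factor *Gdf15* 29.8 (14.8 to 61.9) in GFP+, with too few UMIs in GFP− (3 and 10) for a narrow interval (1.06 to 23.3).

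**Figure D5:**
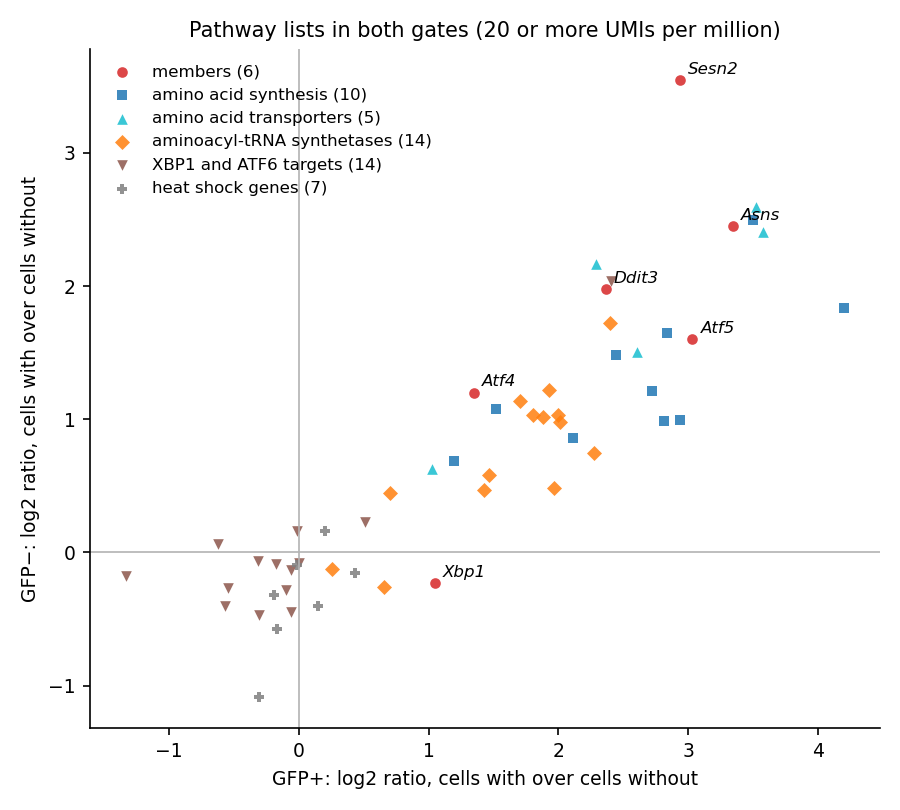
log2 ratio of CPM in cells with over cells without a Chac1 or Trib3 UMI, GFP+ on the horizontal and GFP− on the vertical axis, for genes of 6 lists that reached 20 CPM in either class in both gates. The amino acid and tRNA synthetase lists lie mostly to the upper right with Asns, Atf5, Ddit3 and Sesn2, while the XBP1 and ATF6 targets and heat shock genes lie around 0, as does Xbp1 on the GFP− axis.

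In the lists of other stress pathways fewer genes reached 2-fold. Of 17 targets of XBP1 and ATF6, mostly chaperones of the endoplasmic reticulum, 1 was at 2-fold or more higher and 1 lower in GFP+ (median log2 ratio -0.10), and of 14 in GFP− 1 was higher (median -0.11). The gene that was higher in both was *Herpud1*, with ratios of 5.29 (4.57 to 6.09) and 4.10 (3.52 to 4.76), which has also been described as an ATF4 target. *Creld2* was lower in GFP+, 0.378 (0.172 to 0.723), on 9 UMIs in the cells with, and its interval included 1 in GFP−. *Manf*, a secreted factor of the endoplasmic reticulum, had 0.644 (0.481 to 0.847) and 1.04 (0.934 to 1.16). None of 7 heat shock genes was at 2-fold or more in either gate (medians -0.01 and -0.32), with *Hsp90aa1* at 1.35 and 0.900, *Hspd1* at 1.15 and 1.11, and *Hsph1* at 0.783 and 0.461 (0.284 to 0.708), the latter at 2-fold or more lower.

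Of 12 p53 targets, 3 were at 2-fold or more higher and 2 lower in GFP+, and of 6 in GFP− none was either. The cell cycle inhibitor *Cdkn1a* was at 118 and 13.1 CPM in GFP+, a ratio of 9.07 (6.95 to 11.8), and had 1.39 (0.811 to 2.24) in GFP−. *Bbc3*, which encodes the pro-apoptotic protein PUMA and stands on the ATF4 and CHOP list too, had 5.87 (4.91 to 6.99) and 1.19 (0.872 to 1.59). *Plk2* was lower in GFP+, 0.324 (0.104 to 0.764), on 5 UMIs. Of the immediate early genes, which neurons and dissociated cells induce within minutes, 1 of 12 was at 2-fold or more in GFP+, and that was *Atf3* itself. None of 8 was in GFP−. The median log2 ratios were 0.56 in GFP+, *Atf3* included, and 0.46 in GFP−, beside 0.06 and 0.01 over all genes that reached 20 CPM. *Dusp1* had ratios of 1.99 and 1.17, *Jun* of 1.64 and 1.51 and *Myc* of 1.81 (0.989 to 3.06) and 0.960. Of 6 NRF2 targets 2 were higher in GFP+, *Slc7a11* and the heme oxygenase gene *Hmox1*, at 7.24 (4.83 to 10.6) and in GFP− at 3.70 (2.23 to 5.86), while *Gsr* had 1.55 and 1.17. None of 4 genes of glutathione metabolism reached 2-fold in either direction, with *Gpx4* at 0.785 and 1.05 and *Gpx1* at 0.805 and 0.846. Over all lists together, the 10 genes left out, 43 of 100 genes were at 2-fold or more in GFP+ and 21 of 79 in GFP−, beside 3.92% and 1.24% of all genes.

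The genes whose pattern was most like that of the stress genes were those with the highest value of the lower of the 2 gates' log2 ratios, taken over the 4806 genes that reached 20 CPM in the marked cells of both gates. The first 10 were *Pck2*, *Slc1a4*, *Serpinf1*, *Mthfd2*, *Eif4ebp1*, *Slc7a5*, *Creb5*, *Slc7a1*, *Herpud1* and *Cth*. *Pck2*, mitochondrial phosphoenolpyruvate carboxykinase, had ratios of 12.4 (9.94 to 15.4) and 7.61 (5.94 to 9.69). *Eif4ebp1*, a repressor of translation initiation, had 9.92 (8.77 to 11.2) and 5.31 (4.86 to 5.79). *Serpinf1*, which encodes the secreted factor PEDF, had 16.8 and 5.74 (3.77 to 8.52), and *Creb5*, a bZIP factor, 9.67 and 5.04. In the same order with the members included, *Sesn2* stood at place 1, *Asns* at 6, *Ddit3* at 12, *Atf5* at 18 and *Atf4* at 27 of 4812 genes, and *Xbp1* at 3152. *Atf3* and *Cebpb*, at 16.7 and 13.9 CPM in the marked GFP− cells, were not ranked. The 10 genes were chosen with this contrast in view, so nothing is read from their places. Because the limit was set on the marked cells, genes scarce in the unmarked cells could enter, such as *Sesn2* at 4.01 CPM in GFP−. Genes scarce in the marked cells could not. At the other end, ranked by the higher of both ratios over the 4928 genes that reached 20 CPM in the unmarked cells of both gates, stood 5 genes. *Dll3*, a Notch ligand of neurogenic cells, had 0.367 (0.265 to 0.496) and 0.368 (0.239 to 0.541), *Fabp7*, a fatty acid binding protein, 0.424 (0.357 to 0.501) and 0.122 (0.0447 to 0.267), and the microRNA host gene *Mir124a-1hg* 0.530 and 0.276. *Klhdc8a* had 0.433 and 0.351, and *Tmem2* 0.476 and 0.466.

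Cell type markers moved with the classes in the GFP− gate, where most positive cells were progenitor-like. The 8 multipotent RPC markers summed to 7726 CPM in GFP− cells with and 4593 CPM in those without, the 10 RGC markers to 482 and 1388 CPM, the 8 AC/HC markers to 53 and 330.0 CPM, the 8 neurogenic RPC markers to 969 and 1759 CPM, and the 10 cone markers to 36.3 and 166 CPM. *Gngt2*, *Gnb3*, *Lhx4*, *Pdc* and *Gnat2* were at 0 in those with. In GFP+ cells the sums were 6336 and 7042 CPM for cone, 191 and 260.1 CPM for multipotent RPC, 445 and 746 CPM for neurogenic RPC and 207 and 291 CPM for AC/HC markers. The 10 RGC markers summed to 653 and 373 CPM there, but moved in both directions. *Ebf1* held most of the sum, with a ratio of 1.76 (1.57 to 1.95), and *Gap43*, an axon growth protein, had 3.63 (2.62 to 4.93) and *Pou4f1* 2.72 (1.91 to 3.80), while *Sncg* had 0.137, *Nefm* 0.410 and *Nefl* 0.490 on 1 to 3 UMIs in the cells with, *Ebf3* had 0.780, and *Isl1* and *Rbpms* were at 0. Markers of rods, pigment epithelium, microglia, endothelium, blood, mesenchyme and lens summed to at most 65.1 CPM in any class, with 7 of 8 microglial markers at 0 in the cells with in both gates. The part of these cell types in the stress gene ratios was not tested, other than within the cell groups above.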

How the data were processed

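Per the labels and the study's methods, droplet libraries (10x Chromium) were made from sorted GFP+ and GFP− cells, and the authors deposited 1 matrix of UMI counts per gate, not normalized, made with Cell Ranger 2.1.1 on mm10 according to the submitters' processing notes. Cells with 250 to 3500 genes and a mitochondrial limit of 0.25, read as a fraction, were kept. The deposited barcodes numbered 3728 and 4445, of which 39 and 1053 exceeded 3500 genes and 1 in GFP− exceeded the mitochondrial limit. Counts were summed over cells of a class and divided by the class total (CPM). In the counts of list genes, log2 ratios were taken after adding 0.5 to both sums, over genes with at least 20 CPM in either class. The 95% intervals of ratios were tested on simulated Poisson sums with known ratios, which leave out variation between cells and between libraries. For thinning, 3200 UMIs were drawn from each cell.

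Cells of both libraries were clustered with scanpy 1.11.5 (2000 variable genes without the 138 stress and pathway genes, 30 principal components, 15 neighbours, Leiden resolution 0.6). A cluster was named from the marker list with the highest median log2 ratio of detection shares (0.01 added), if at least 0.5 and if further rules held. These rules concerned its 10 leading genes, the markers detected, depth and, for RPC names, the share of cells in G1. Otherwise it was named by its leading gene. Clusters 3, 5 and 11 were named so although they passed 0.5 (cone 1.36, neurogenic RPC 0.75 and 1.18). Cluster 4, named cone-like, had 0.71. Scrublet at an expected rate of 0.03 marked doublets, which were left in. The 10 genes and the lists, which were taken from general knowledge, were chosen with earlier results of these data known. Named genes were all 10, the 3 genes of each list farthest from a ratio of 1 in GFP+ cells, and the genes most and least like them in pattern. *Vars* and *Wars* were named after their values were seen. There are 58 symbols with more than 1 gene in the matrices. Promoters were taken from RefSeq tables for GRCm38.p6. Python 3.11.15, numpy 2.4.6, scipy 1.17.1, pandas 2.3.3 and matplotlib 3.10.9 were used. Immunofluorescence of the study was not analysed here.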

Additional observations from a re-analysis of the deposited data

Results flagged for a closer look

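The 1053 GFP− cells with more than 3500 genes lie outside the comparisons above. A Chac1 or Trib3 UMI was found in 46 of them, 4.37% (3.22 to 5.78), at a median depth of 14925 UMIs, and in 1 of the 39 such GFP+ cells. Among these GFP− cells, *Sesn2* had a ratio of 9.80 (5.29 to 17.5) between the cells with and without, *Asns* of 2.61 (2.04 to 3.31), *Ddit3* of 2.05 (1.39 to 2.93), *Atf5* of 1.82 (1.37 to 2.38) and *Atf4* of 1.61 (1.36 to 1.89). *Xbp1* had 0.687 (0.428 to 1.05). *Atf3* and *Cebpb* rested on 1 and 4 UMIs in the cells with.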

How the results depend on the processing

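Of 61 summary values under alternative settings, 42 were labelled as staying near the main value and 19 as moved. None of the log2 ratios among them changed direction. Shares of cells and counts of genes have no direction, so they could not have done so. For a median log2 ratio, the range used was the median of the interval bounds of the single genes. That range is not an error of the median. Thinning lowered the GFP− share of cells with a Chac1 or Trib3 UMI to 2.26%. Requiring 2 UMIs gave shares of 1.71% in GFP+ and 1.80% in GFP−, by construction, and a GFP+ median log2 ratio of 3.22. Weighting the cells without to the clusters of the cells with gave 0.75 in GFP+, where 46.9% of the weight lay on 41 cells of cluster 4. Scaling by the median of all genes that reached 20 CPM gave 0.93 for cells without a mark, GFP+ over GFP−, and 1.01 for all cells. Unmarked GFP+ cells of the cone-like clusters 1 and 4 were also set against single GFP− classes. The 1660 unmarked GFP+ cells of the *Fabp7*-led cluster 3 were left out there. The medians were 2.41 (AC/HC-like), 1.81 (*Magel2*-led), 1.70 (RGC-like), 2.36 (*Sp8*-led), 1.52 (multipotent RPC-like) and 2.43 (neurogenic RPC-like), with 3 counts in place of a sum of 0. The value of 1.25 over all unmarked cells includes cluster 3, so it is not a like comparison. At a ratio of 1.5, 34 list genes were higher in GFP−, against 21 at 2. Regressing out depth and cell cycle left 93.8% of the GFP+ cells with such a UMI in the cone list clusters. At Leiden resolution 1, 64.7% of the GFP− cells with such a UMI were in multipotent RPC-like clusters. A *Ctss*-led cluster with that list highest held 24.8% more of them.

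Chosen after seeing the data, the baseline without 5 of the transcripts gave 0.73. Leaving out the cells of cluster 4 gave 0.72 for all cells and 2.45 for GFP+ cells with over without, and turned the direction of *Chac1* (-0.33) and *Trib3* (-0.0087) between gates. Of 283 values for single genes, 202 stayed within their error, 79 moved and 2 changed direction. With 1 library per gate no variation between animals or sorts could be measured, and depth limits the scarce genes *Atf3* and *Cebpb* in GFP−. No paired analysis was possible because each gate has 1 library.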
